A study of Danio rerio with 6 samples.

Results

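The genes described here encode the AP-1 transcription factors and their relative Atf3, all known as early response genes: fosab, fosaa, fosb, fosl1a and fosl2 of the Fos family, jun, junba, junbb and jund of the Jun family, and atf3. They were taken by name from the deposited count table. All 10 names were found, each on 1 row of the 31901 rows, and all 10 passed the filter on low counts that left 18541 rows for testing. The RNA came from caudal fin regenerates of shha:GFP zebrafish (Danio rerio), in which cells that express the ligand gene shha carry green fluorescent protein. Fish were 4 days past fin amputation and were given an intraperitoneal injection of BMS-833923, a small-molecule inhibitor of Smoothened, at 40 mg/kg, or of the injection buffer alone (PEG-400, propylene glycol and Tween-80), and fins were taken 5 hours later. The BMS group has 3 libraries and the vehicle group has 3, numbered 2, 3 and 4 in each, and every library is a pool of 4 regenerates trimmed to the shha:GFP domains and the tissue distal to them. Both groups therefore share the transgene, the amputation, the injection and the buffer, and uninjected fins were not analysed here. The compound code in the label differs in its last digit between the 3 BMS libraries, but the design text knows only BMS-833923, and they are treated as 1 group. Neither the age nor the sex of the fish is stated in the labels.

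AP-1 is a pair of basic leucine zipper proteins, either a Fos protein joined to a Jun protein or 2 Jun proteins. Its genes are classic immediate early genes: stimuli such as serum, growth factors, wounding and stress switch on fos, fosb and junb within minutes through kinases of the Mapk family, and most of the transcripts are short-lived. Fosl1 and Fosl2 usually follow later and last longer, and JunD is present more steadily in many cells. Atf3 joins the same family of zippers, pairs with Jun proteins and is induced by injury and by the stress pathway of Atf4. In zebrafish tissues, AP-1 has been linked to the opening of regeneration-responsive enhancers.

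Total counts ran from 16978747 to 22659275 per library. The 10 genes together took 0.124%, 0.251% and 0.255% of the counts in BMS replicates 2, 3 and 4, and 0.177%, 0.386% and 0.174% in vehicle replicates 2, 3 and 4. Levels below are CPM, the gene's reads scaled to a common library size after TMM, edgeR's correction for differences in composition between libraries. Libraries of the same number deviated together across genes (r of 0.55 to 0.62). The numbers are therefore treated as pairs in the ratios within pairs and in the fits with the replicate number as a block. Log2 fold changes and SEs below come from edgeR's fit without that block, which ignores the pairs, unless the block is named. The BMS replicate 2 library stood apart: its TMM factor was 0.779, against 0.954 to 1.12 in the others, and the ribosomal protein share was 8.89% of its reads, where the other libraries had 4% to 6.62%. Its mean level of superficial and intermediate epidermis markers was 8.95 log2 CPM, against 8.2 to 8.7 in the others. Markers of basal epidermis, fin mesenchyme and osteoblasts were present in every library, but not at equal levels. The mean of fin mesenchyme and blastema markers was 7.47, 6.89 and 6.69 log2 CPM in BMS replicates 2, 3 and 4. In vehicle replicates 2, 3 and 4 it was 7.41, 7.17 and 6.86. Basal epidermis markers were at 7.52 and 7.63 log2 CPM in BMS and vehicle replicates 4, and at 8.11 to 8.19 in the others. The part of these differences in the levels of the 10 genes was not tested. None of the genes on the marker lists that were in the table was at 0 throughout.

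The gene fosab, the zebrafish counterpart of the founding member FOS, was at 58.5, 150 and 524 CPM in BMS replicates 2, 3 and 4, and at 85.2, 641 and 314 CPM in vehicle replicates 2, 3 and 4. It was low in both libraries numbered 2, and the groups overlapped. The mean was 244 ± 247 CPM in BMS and 347 ± 280 CPM in vehicle (SD, n = 3 libraries each, as for all means below), with a log2 fold change of -0.51 ± 0.80 (SE). In bulk tissue, a lower level from fewer expressing cells and one from less RNA per cell cannot be told apart.

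The second fos copy, fosaa, was nearly silent. It had 9, 18 and 7 reads in BMS replicates 2, 3 and 4, and 4, 15 and 2 reads in vehicle replicates 2, 3 and 4. The 18 reads of BMS replicate 3 have a 95% Poisson interval of 10.7 to 28.4 reads and the 2 reads of vehicle replicate 4 one of 0.242 to 7.22, which cover counting error only. Those libraries are from different pairs, and within each same-number pair the intervals overlapped. In the pair numbered 4 they were 2.81 to 14.4 reads in BMS and 0.242 to 7.22 in vehicle. It was higher in BMS in each of the 3 pairs and the groups overlapped, with a log2 fold change of 0.96 ± 0.72.

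The gene fosb, which encodes another rapidly induced Fos protein, was at 128, 623 and 340 CPM in BMS replicates 2, 3 and 4, and at 286, 503 and 46.9 CPM in vehicle replicates 2, 3 and 4. Its lowest library was vehicle replicate 4, and its 2 highest, numbered 3, came from both groups. The log2 fold change was 0.39 ± 0.75.

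Of the slower Fos-related genes, fosl1a (Fra-1 in mammals) was at 31.3, 90.9 and 42.6 CPM in BMS replicates 2, 3 and 4, and at 39.7, 72.4 and 3.37 CPM in vehicle replicates 2, 3 and 4. The 3.37 CPM rest on 85 reads, against 813 and 1715 reads in the other vehicle libraries. The highest vehicle level of fosl1a was 21.5 times the lowest, the widest range of the 10 genes within a group, and its log2 fold change was 0.52 ± 0.80. The gene fosl2 (Fra-2 in mammals) varied less. It was at 184, 446 and 209 CPM in BMS replicates 2, 3 and 4, and at 344, 380 and 181 CPM in vehicle replicates 2, 3 and 4. Its 3 lowest libraries were BMS replicate 2 and both libraries numbered 4, and the log2 fold change was -0.11 ± 0.42.

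**Figure D1:**
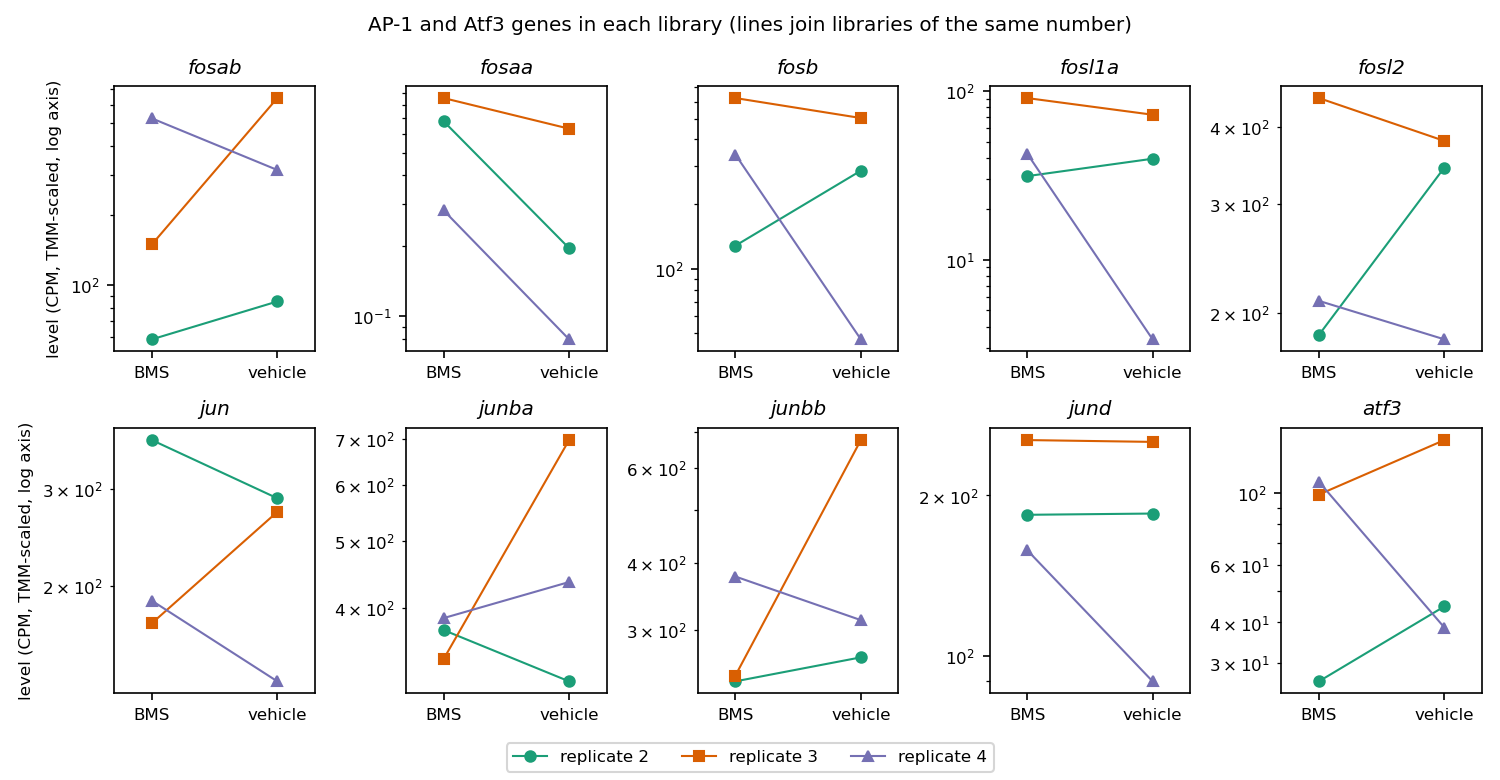
Level of each gene (CPM, TMM-scaled, log axis with its own range in each panel) in the BMS libraries (left) and vehicle libraries (right). Each point is 1 library and lines join libraries of the same number; the lines cross or run in different directions in most panels, and fosl1a is at 3.37 CPM in vehicle replicate 4.

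In the Jun family, jun itself, the partner that can also act in Jun pairs, was at 369, 171 and 188 CPM in BMS replicates 2, 3 and 4, and at 289, 273 and 134 CPM in vehicle replicates 2, 3 and 4. It was the only one of the 10 genes with its highest level in BMS replicate 2. The means were close, at 243 ± 110 CPM in BMS and 232 ± 85 CPM in vehicle, and the log2 fold change was 0.06 ± 0.40. The sign of that value turned to -0.09 with total-count scaling, where the median of all rows was -0.10.

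The 2 zebrafish copies of junb, which encodes a Jun protein with weaker activating power than Jun in mammalian cells, had one library in common at the top. The copy junba was at 372, 338 and 387 CPM in BMS replicates 2, 3 and 4, and at 314, 697 and 436 CPM in vehicle replicates 2, 3 and 4. The copy junbb was at 241, 247 and 377 CPM in BMS replicates 2, 3 and 4, and at 267, 675 and 313 CPM in vehicle replicates 2, 3 and 4. For both copies vehicle replicate 3 was highest, while the highest BMS level of junba was 1.15 times the lowest and that of junbb 1.56 times. The log2 fold changes were -0.40 ± 0.34 for junba and -0.54 ± 0.40 for junbb, and without vehicle replicate 3 they were -0.04 and -0.01.

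The gene jund, the more steadily expressed Jun member in many cells, was at 184, 254 and 158 CPM in BMS replicates 2, 3 and 4, and at 185, 252 and 89.7 CPM in vehicle replicates 2, 3 and 4. The libraries numbered 2 differed by 0.00 log2 units and those numbered 3 by 0.01. The difference was in the libraries numbered 4, and the log2 fold change was 0.18 ± 0.39.

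The stress- and injury-induced gene atf3 was at 26.4, 98.7 and 108 CPM in BMS replicates 2, 3 and 4, and at 44.8, 145 and 38.6 CPM in vehicle replicates 2, 3 and 4. Its means were 77.8 ± 44.8 CPM in BMS and 76.1 ± 59.7 CPM in vehicle. The log2 fold change was 0.03 ± 0.60, with a 95% interval of -1.31 to 1.37.

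The comparison of BMS with vehicle asks, per the design text, which transcripts lie downstream of Sonic hedgehog in the regenerate. None of the 10 genes passed edgeR's quasi-likelihood test with Benjamini-Hochberg adjustment over all 18541 rows (adjusted p = 1 for each), where the share of all rows called was 0%. At an unadjusted p under 0.05 the test gave 0 of the 10 genes, and 1.07% of all rows. With the replicate number as a block the same test again called 0 of 10 genes and 0% of all rows, with 0 of the 10 genes and 7.05% of all rows below an unadjusted p of 0.05. DESeq2 fitted with the block likewise gave no call among the 9 genes with an adjusted p (fosaa had none), against 0.388% of all rows. None of the 10 had groups that did not overlap, against 3.92% of all rows.

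These results do not show equal levels, since the intervals were wide. Without the block, the 95% interval of the log2 fold change ran from -1.16 to 0.37 for junba, the narrowest of the 10, and from -2.29 to 1.28 for fosab. With the block it ran from -0.19 to 0.74 for jund and from -0.49 to 0.61 for jun, but from -1.64 to 2.86 for fosb and from -1.21 to 3.26 for fosl1a. The log2 fold change was positive for 6 of the 10 genes, against 51.5% of all rows, and its median over the 10 was 0.05, against 0.01 over all rows. Leaving out 1 library at a time turned the sign for 7 of the 10 genes. It turned without BMS replicate 2 for fosab, fosl2 and jun, without BMS replicate 3 for fosb, fosl1a, jund and atf3, and without BMS replicate 4 for fosl2 and atf3. It also turned without vehicle replicate 2 for atf3, without vehicle replicate 3 for fosab and fosl2, and without vehicle replicate 4 for fosb, fosl1a, jun, jund and atf3. The exceptions were fosaa, junba and junbb, whose values ranged from 0.50 to 2.11, from -0.63 to -0.04 and from -0.78 to -0.01.

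**Figure D2:**
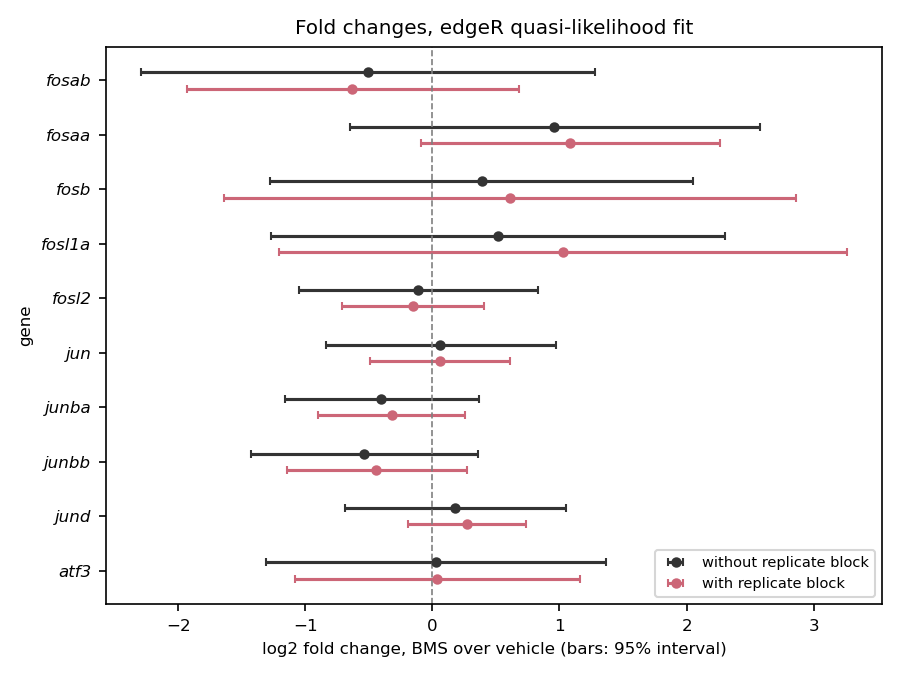
Log2 fold change of BMS over vehicle for each gene in edgeR's quasi-likelihood fit, without and with the replicate block. Points are estimates and bars 95% intervals; every interval includes 0, and those of fosb and fosl1a with the block reach 2.86 and 3.26.

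Within same-number pairs the genes moved in different directions. In the libraries numbered 2, BMS was higher than vehicle for 3 of the 10 genes (fosaa, jun and junba), with a median log2 ratio of -0.24. In those numbered 3 it was higher for 5 of 10, with a median of -0.27, and fosab (-2.09), junbb (-1.45) and junba (-1.04) were furthest below 0. In those numbered 4 it was higher for 9 of 10, with a median of 0.78, and junba (-0.17) was the exception. Over all rows tested, 50%, 49% and 43.6% were higher in BMS in the pairs numbered 2, 3 and 4, with medians of 0, -0.01 and -0.06. Of the 10 genes, 1 (fosaa, the low one) had the same direction in all 3 pairs, against 31.6% of all rows.

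The largest log2 ratios, 3.62 for fosl1a and 2.86 for fosb, came from the pair numbered 4. In that pair atf3 was at 1.49, fosaa at 1.12 and jund at 0.82. In the pair numbered 2, fosl1a, fosb, atf3, fosaa and jund were at -0.34, -1.15, -0.76, 1.42 and 0.00. Across the libraries, 6 of the 10 genes had their lowest level in vehicle replicate 4 (fosaa, fosb, fosl1a, fosl2, jun and jund), and 3 had it in BMS replicate 2 (fosab, junbb and atf3). Vehicle replicate 3 held the highest level of fosab, junba, junbb and atf3, and BMS replicate 3 that of fosaa, fosb, fosl1a, fosl2 and jund.

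**Figure D3:**
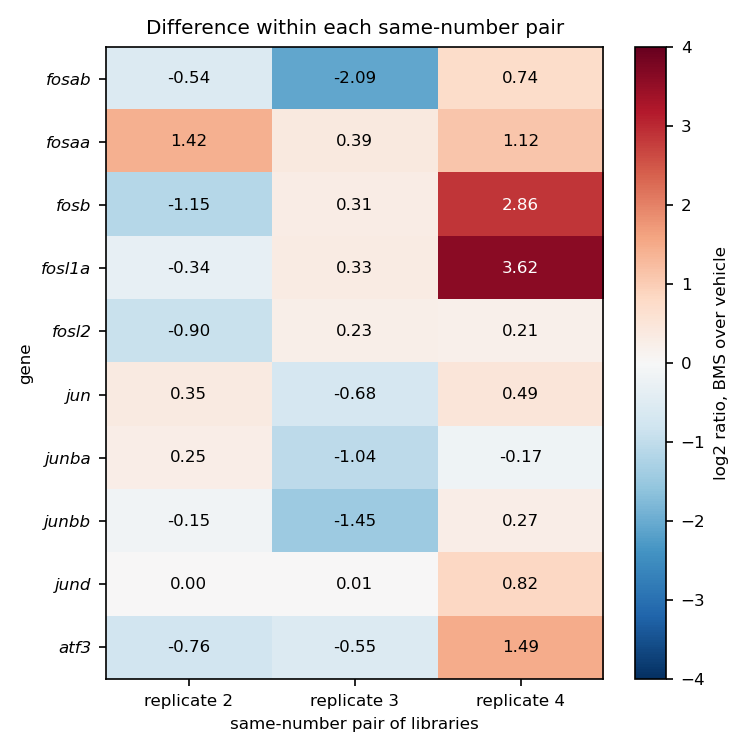
Log2 ratio of BMS over vehicle for each gene (rows) within the libraries numbered 2, 3 and 4 (columns), with the value written in each cell. The column for replicate 4 is positive for all genes but junba, and the column for replicate 3 holds the lowest value, -2.09 for fosab.

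A single gene of the 10 passed a test in 1 alternative. In the blocked edgeR fit without both libraries numbered 3, fosl1a had a log2 fold change of 1.52 and an adjusted p of 3.34e-05, although its log2 ratios in the remaining pairs were -0.34 and 3.62. That fit has 2 pairs, too few to estimate the spread between pairs, and called 392 genes, against 0 with all libraries. Its adjusted p-values, here and below, are therefore not read as evidence of a difference.

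The spread between libraries of 1 group was large for part of the family. The pooled within-group SD of log2 CPM was 1.73 for fosl1a, 1.53 for fosab, 1.5 for fosb and 1.09 for atf3. Among the 9998 rows with a mean of at least 10 CPM, the median SD was 0.39 and the 90th percentile 0.68. The SD of those 4 genes was above that of 99.9%, 99.9%, 99.8% and 99.2% of these rows. The values for fosl2, jun, jund and junbb were 0.64, 0.61, 0.59 and 0.57, above 86.5%, 83.9%, 82.3% and 79% of the rows, and junba lay near the middle (0.42, above 54.4%). Because all of these are rows of 1 table with shared libraries, the ranks are a description of these 6 libraries.

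Some of this spread was not shared by libraries of the same number, and how much was shared was not measured. The SD given next has fewer degrees of freedom than the within-group SD, so comparing them does not give the shared part. After the mean of each group and each number was removed, the SD was 1.5 for fosl1a, 1.44 for fosb, 1 for fosab and 0.88 for atf3, against a median of 0.19 over the rows of at least 10 CPM. On that measure junba (0.47) and junbb (0.63) were also above 94.4% and 98.5% of the rows.

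**Figure D4:**
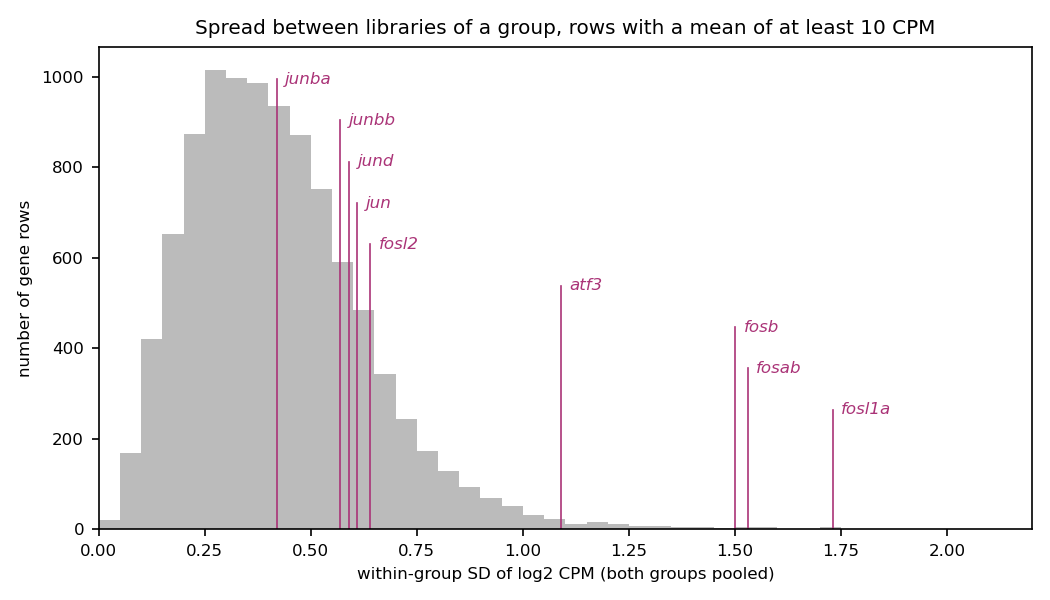
Histogram of the pooled within-group SD of log2 CPM for the 9998 gene rows with a mean of at least 10 CPM (grey bars), with a line at the SD of each of the 9 genes that reach that level (line heights carry no value). The lines for atf3, fosb, fosab and fosl1a lie at 1.09 to 1.73, to the right of the 90th percentile of 0.68.

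Over the 6 libraries the genes fell into different patterns rather than 1. Pearson's r of log2 CPM, given as a description since the 6 libraries share 2 groups and 3 numbers, ranged from -0.50 (fosab with jun) to 0.96 (fosl1a with jund) over the 45 pairs of genes, with a median of 0.45. The genes fosb, fosl1a and jund were alike (0.95 for fosb with fosl1a and 0.90 for fosb with jund), and fosl2 was nearest to fosb (0.82). The genes fosab, junba and junbb formed another set (0.92 for junba with junbb, 0.83 for fosab with junbb and 0.71 for fosab with junba). Between these sets the values were lower, from -0.10 for fosab with jund to 0.29 for fosb with junbb. With the group means removed, they ran from -0.04 to 0.46 for the same pairs of genes. The gene atf3 was close to members of both, at 0.77 with fosb and 0.75 with fosab.

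The balance of Fos transcripts shifted accordingly from library to library. Reads of fosb per read of fosab were 2.19, 4.15 and 0.649 in BMS replicates 2, 3 and 4, and 3.35, 0.784 and 0.149 in vehicle replicates 2, 3 and 4. Reads of fosab per read of jun were 0.158, 0.879 and 2.79 in BMS replicates 2, 3 and 4, and 0.295, 2.35 and 2.34 in vehicle replicates 2, 3 and 4. In each group, the libraries numbered 2 had the fewest fosab reads per jun read and those numbered 4 the fewest fosb reads per fosab read. These are ratios of reads, not of molecules, because transcript lengths were not used here, and for the same reason levels are not ranked between genes.

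**Figure D5:**
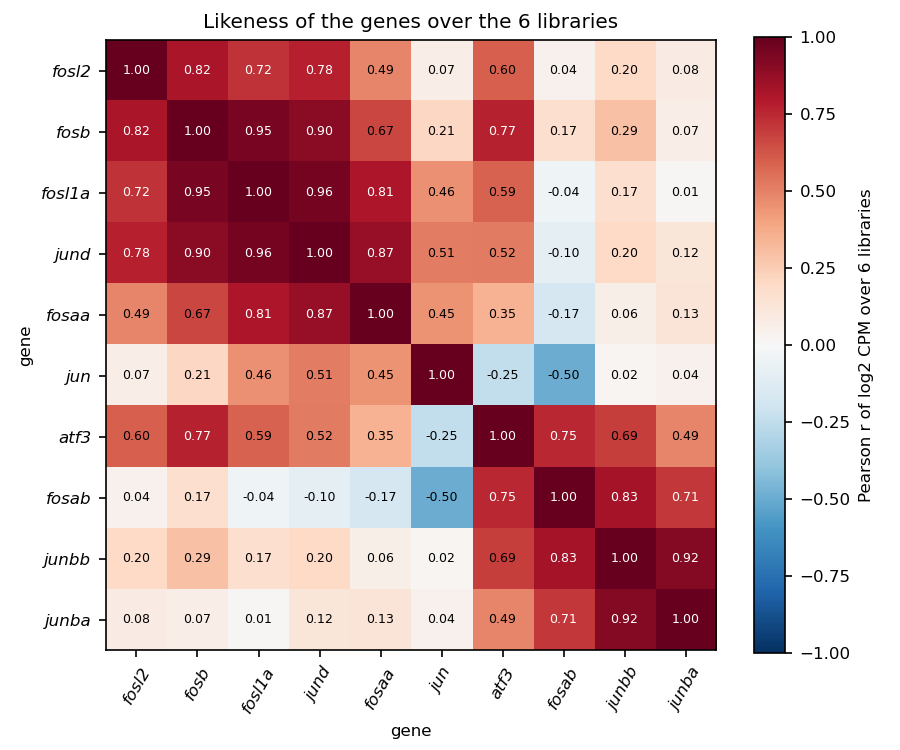
Pearson's r of log2 CPM over the 6 libraries for every pair of the 10 genes, written in each cell. Most high values stand in 2 blocks, fosl2, fosb, fosl1a, jund and fosaa at the upper left and fosab, junbb and junba at the lower right. Those of fosaa rest on 2 to 18 reads per library and go down to 0.49, with fosl2. Outside the blocks, atf3 reaches 0.77 with fosb. Between these blocks the values run from -0.17 to 0.29.

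Outside the family, the rows most like the mean standardized profile of the 10 genes, among 12413 rows with a mean of at least 5 CPM, were btg2 (r = 0.948), tesk2 (0.938), ddit3 (0.933), ino80 (0.928), trim37 (0.918), ptgs2b (0.916), zgc:162730 (0.912) and pim3 (0.911), over 6 libraries. The antiproliferative early gene btg2 was at 292, 446 and 509 CPM in BMS replicates 2, 3 and 4, and at 375, 650 and 215 CPM in vehicle replicates 2, 3 and 4. The prostaglandin synthase gene ptgs2b was at 19.8, 42.1 and 38.9 CPM in BMS replicates 2, 3 and 4, and at 20.3, 45.7 and 11.1 CPM in vehicle replicates 2, 3 and 4. Both had their highest level in vehicle replicate 3 and their lowest in vehicle replicate 4. The mean profile by which they were picked did the same, so this likeness is not a separate result. Of the 10 genes themselves, 4 were highest in vehicle replicate 3 and 6 were lowest in vehicle replicate 4. Their own r with the mean profile ran from 0.3 (jun) to 0.87 (fosb).

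Genes that work around AP-1 were read in the same fits. With all libraries, 0 of them passed the edgeR quasi-likelihood test over all rows in either direction, with or without the block. Without the block, 1 (csrnp1a) had an unadjusted p under 0.05, a level that 1.07% of all rows reached. With the block more of them were under it, a level that 7.05% of all rows reached. The share of these genes is not given here, so no comparison with all rows is drawn. Among these, csrnp1a, tob1b, rgs2, cremb, ddit4, dusp5 and cd44a were higher in BMS, and srfa and bach1a were lower. Others, in both directions, are not named here. The other immediate early genes, described below, held more of these than any other list, but with 36 tested genes it is also the longest list. Of 27 tested basic leucine zipper partner genes, such as the Maf, Bach, Creb and other Atf genes, 12 had positive and 15 negative log2 fold changes, with a median of -0.04. The cyclic AMP responsive gene cremb had the smallest p of that list, at 8.56 ± 4.12 CPM in BMS and 4.67 ± 2.90 CPM in vehicle, and was higher in BMS in 3 of 3 pairs (log2 fold change 0.87 ± 0.51). Of 27 tested genes for Mapk cascade kinases and serum response factors, which act upstream of fos, 7 were positive and 20 negative (median -0.10). Without BMS replicate 3 that median was -0.58, without BMS replicate 2 or 4 it was 0.01, and BMS was higher for 6, 22 and 6 of the 27 genes in the pairs numbered 2, 3 and 4. Among them map2k1, which encodes a kinase that activates Erk, was at 38.5 ± 1.24 CPM in BMS and 31.8 ± 0.415 CPM in vehicle. Its log2 fold change was 0.28 ± 0.24 (unadjusted p = 0.281 by edgeR's quasi-likelihood test). Its groups did not overlap, as for 2 of the 27 genes and 3.92% of all rows. Mapk phosphatase genes, which switch the kinases off, were positive in 5 of 9 (median 0.02, from -0.20 without vehicle replicate 4 to 0.27 without BMS replicate 4). The Erk phosphatase gene dusp5 was at 180, 97.1 and 81.6 CPM in BMS replicates 2, 3 and 4. In vehicle replicates 2, 3 and 4 it was at 90.6, 57.9 and 8.37 CPM. It passed only in the blocked fit without both libraries numbered 3 (adjusted p = 1.99e-12), which has the limit given above.

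Genes of the Atf4 stress response, which induces atf3 in mammals, were positive in 14 of 17 (median 0.18, or 0.02 with total-count scaling). In that list ddit4 was at 34.5 ± 27.4 CPM in BMS and 22.1 ± 15.8 CPM in vehicle, and cebpb at 323 ± 37.1 CPM in BMS and 243 ± 117 CPM in vehicle. Other immediate early genes were positive in 24 of 36 (median 0.26, or 0.03 without vehicle replicate 4). The smallest p of the list was that of csrnp1a (13.0 ± 7.26 CPM in BMS and 6.92 ± 1.18 CPM in vehicle, unadjusted p = 0.0455 by edgeR). The transducer gene tob1b, which restrains cell growth, was at 307 ± 37.8 CPM in BMS and 178 ± 93.7 CPM in vehicle, and it too passed in the blocked fit without both libraries numbered 3 (adjusted p = 0.00583). Over all rows the median log2 fold change was 0.01, or -0.10 with total-count scaling.

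Injury genes known as AP-1 targets, mostly from mammals, were positive in 16 of 22. Their median was 0.23, or 0.08 with total-count scaling, where that of all rows was -0.10. Of the markers of superficial and intermediate epidermis, 12 of 13 were positive (median 0.31, or 0.14 without BMS replicate 2). So were 12 of 15 heat shock genes (median 0.22, or -0.21 without BMS replicate 2). The part of either in the values of the gene lists above was not tested. Of the 22 injury genes, DESeq2 with the block called 1 higher, against 0.388% of all rows called. Groups did not overlap for 3 of the 22, against 3.92% of all rows. None of the 3 injury genes reported here passed with all libraries. The hyaluronan receptor gene cd44a was at 365, 222 and 295 CPM in BMS replicates 2, 3 and 4, and at 253, 167 and 219 CPM in vehicle replicates 2, 3 and 4. It was higher in BMS in 3 of 3 pairs while the groups overlapped (log2 fold change 0.47 ± 0.31 by edgeR). The gene plaub, which encodes a urokinase-type plasminogen activator, was at 7.11, 4.66 and 6.1 CPM in BMS replicates 2, 3 and 4, and at 4.39, 4.51 and 3.97 CPM in vehicle replicates 2, 3 and 4. Its groups did not overlap, and the log2 fold change was 0.47 ± 0.30. The growth factor gene hbegfa was at 227, 158 and 206 CPM in BMS replicates 2, 3 and 4, and at 141, 179 and 134 CPM in vehicle replicates 2, 3 and 4 (0.38 ± 0.28).

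The mean level of early genes was lowest in vehicle replicate 4, but this did not hold gene by gene. Of the 10 genes, 6 had their lowest level there. In contrast, junba, at 436 CPM there, was higher in only 1 of the other libraries. Both fosab (314 CPM) and junbb (313 CPM) were higher there than in either library numbered 2. Some of the other immediate early genes were not lowest there either. The mean level of the 10 AP-1 and Atf3 genes was 6.22, 7.01 and 6.79 log2 CPM in BMS replicates 2, 3 and 4, and 6.41, 7.47 and 5.65 log2 CPM in vehicle replicates 2, 3 and 4. Other immediate early genes had a mean of 5.69, 5.89 and 5.71 log2 CPM in BMS replicates 2, 3 and 4, and of 5.68, 5.91 and 4.72 log2 CPM in vehicle replicates 2, 3 and 4. Leukocyte markers lay between 4.58 and 4.67 log2 CPM in all 6 libraries, with sums of 932 to 1294 CPM over 14 genes. Heat shock genes were highest in BMS replicate 2 (5.43 log2 CPM) and between 4.46 and 5.07 in the others, vehicle replicate 4 included. Endothelial and blood markers were lowest in vehicle replicate 4 (2 log2 CPM, against 2.71 to 3.56 in the others). The part of blood and vessel content, or of BMS replicate 2, in the levels of the AP-1 genes was not tested.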

How the data were processed

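Raw counts per gene and a second, shorter table on a scaled signal were deposited by the authors. Genome build GRCz11 and the tools edgeR 4.3.2, HTSeq 0.6.1, TopHat2 2.1.1 and Bowtie2 2.33 are named per the submitters' processing notes; the annotation and strand setting used for counting are not stated there. In the authors' second table each signal value equals the deposited count multiplied by a factor fixed for its library (100% of values within 0.001 read in 11399 rows). It served as an alternative.

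Counts were tested with edgeR's quasi-likelihood test (edgeR 4.0.16, limma 3.58.1, R 4.3.3): TMM, filterByExpr by group, group as the only term, two-sided, Benjamini-Hochberg adjustment over 18541 rows, threshold 0.05. DESeq2 1.42.0 was an alternative. Log2 CPM used a prior count of 2. A count of 0 allows up to 0.132 to 0.177 CPM (3 counts, counting error only).

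Both groups carry numbers 2, 3 and 4. Deviations from the group mean correlated at 0.58, 0.55 and 0.62 in same-number libraries and at -0.50 to -0.16 otherwise, so the numbers were taken as pairs, read from the data and not the labels. The pairs entered only the fits with the replicate block and the ratios within pairs, not the main test. Because the labels name pools rather than fish, p-values speak only of the spread among pools. The blocked fits on 2 pairs have too few libraries to measure even that. Counts of libraries in the same group differed beyond sampling noise (chi-square over degrees of freedom of 32.9 to 132).

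The genes and the 13 other lists were chosen with earlier results of these data known. All 10 genes are named; from other lists, only genes among the 4 smallest p or called in a quoted fit, and the 8 rows most like the family's mean profile. A listed gene that is counted with its list is not reported here.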

Additional observations from a re-analysis of the deposited data

How the results depend on the processing

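With 22 alternatives, the 0 genes called by edgeR's quasi-likelihood test over all rows became 1 by DESeq2 and 1 by the likelihood ratio test without the block, 72 by DESeq2 and 104 by the likelihood ratio test with the replicate block, 0 when any 1 library was left out, and 9, 392 and 12 in the fit with the block without both libraries numbered 2, 3 and 4. With all libraries, edgeR's quasi-likelihood test with the replicate block gave 0. Of the 10 AP-1 and Atf3 genes, 0 were called in every setting that kept all libraries, the fits with the block included, and 0 to 1 (fosl1a) when libraries were left out. Of the genes on the other lists, DESeq2 with the block called 1, an injury gene, and 0 to 14 were called when libraries were left out. The 14 came from the blocked fit without both libraries numbered 3, out of 222 tested. There 8 were called higher in BMS, among them dusp5, tob1b, jdp2b and rgs2, as was fosl1a. The other 6 were called lower, among them srfa and bach1a. Over all 18563 rows of that fit, 186 were called higher and 206 lower. With the block, rgs2 passed the likelihood ratio test. With all libraries, the block changed no other call among the genes reported here. Total-count scaling set the median log2 fold change of all rows at -0.10, against 0.01 with TMM, and the list medians of injury genes at 0.08 and of Atf4 genes at 0.02. In the 13 settings that kept all libraries, 2 of 128 member values changed sign, both of jun (-0.09 with total-count scaling and 0 with no filter). Over the 9 settings that left out libraries, 26 of 89 did. Without 1 library, the log2 fold change ranged from -1.73 to 0.29 for fosab, -0.25 to 1.13 for fosb, -0.06 to 1.35 for fosl1a, -0.62 to 0.11 for fosl2, -0.35 to 0.26 for jun, -0.14 to 0.53 for jund and -0.29 to 0.90 for atf3. With the replicate block and without both libraries of a number, it ranged from -1.33 to 0.08 for fosab, -0.42 to 1.59 for fosb, 0 to 1.78 for fosl1a, -0.37 to 0.24 for fosl2, -0.16 to 0.39 for jun, -0.59 to 0.01 for junba, -0.80 to 0.03 for junbb and -0.66 to 0.48 for atf3, and jun was at -0.08 without those numbered 2. The cause was not tested. Depth limits fosaa, at 2 to 18 reads per library, which the authors' normalized table does not list.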

Other observations

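A pair of relatives of the family outside the 10 genes were singled out after their values were seen. The gene jdp2b encodes a basic leucine zipper protein that pairs with Jun and represses AP-1 sites in mammals. It was at 78.5, 242 and 593 CPM in BMS replicates 2, 3 and 4, and at 153, 444 and 61.8 CPM in vehicle replicates 2, 3 and 4. It was lower in BMS in the pairs numbered 2 and 3 (log2 ratios of -0.97 and -0.88) and higher in the pair numbered 4 (3.26), and it did not pass edgeR's quasi-likelihood test (log2 fold change 0.47 ± 0.77, adjusted p = 1). In the blocked fit without both libraries numbered 3 it passed (1.13, adjusted p = 0.0254 by edgeR), although the pairs in that fit differed in sign. Of the 10 genes, atf3 was nearest to it (r = 0.91 over 6 libraries).

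A further Jun gene, june, was nearest to jun among the 10 genes (r = 0.83 over 6 libraries). It was at 74.1, 50.9 and 27.0 CPM in BMS replicates 2, 3 and 4, and at 55.8, 41.9 and 16.4 CPM in vehicle replicates 2, 3 and 4, so it was higher in BMS in 3 of 3 pairs. In edgeR's fit with the replicate block its log2 fold change was 0.47 ± 0.16 (unadjusted p = 0.0184, adjusted p = 0.656), and it did not pass. The phosphatase gene dusp1, an early gene that acts on Mapk kinases, was also singled out after its values were seen. Of the 10 genes, fosab was nearest to it (r = 0.99 over 6 libraries). It was at 86.4, 155 and 299 CPM in BMS replicates 2, 3 and 4, and at 97.4, 406 and 210 CPM in vehicle replicates 2, 3 and 4.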
